A study of Mus musculus with 4 samples.

Results

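In mouse embryonic fibroblasts with and without Anp32e, H2A.Z peaks on chromosomes 1, 13 and 16 were compared between the genotypes and set against the peaks of the other 16 autosomes. The members are all peaks of the deposited lists that lie on these 3 chromosomes. They number 4747 of 37667 wild-type peaks and 7490 of 41912 knockout peaks. The chromosomes were chosen because they held the largest excess of knockout over wild-type peaks among the autosomes, so the excess itself is a description here and not a finding. The comparison uses 1 wild-type (Anp32e+/+) and 1 knockout (Anp32e-/-) H2A.Z library, both from fibroblasts on a C57BL/6 background between passages 5 and 10. Each culture came from an individual embryo at embryonic day 10.5, bred from heterozygous parents. An input library of each genotype was not analysed here. Copy number of chromosomes in the 2 cultures was therefore not measured, and a difference in it between the cultures cannot be told apart from the genotype in any number, width or extension of peaks given here. Since each genotype has a single library, no replicate spread can be given, the genotypes were not tested against each other, and every value describes these 2 libraries.

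H2A.Z replaces the canonical histone H2A in a fraction of nucleosomes and is found mainly at promoters, enhancers and other regulatory sites. It is deposited by chromatin remodellers of the SRCAP and p400 families. Anp32e is a histone chaperone that binds H2A.Z together with H2B and has been reported to take the variant off chromatin, so the study asks where H2A.Z is found when Anp32e is missing. A peak in these lists is a stretch called as enriched in H2A.Z, given by its position alone, without height or read count. A wider peak therefore means a longer called stretch, and a peak without a partner means that no peak was called in the other library at that place. Weak H2A.Z signal below the calling threshold cannot be seen in such a list, and sequencing depth is unknown.

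Chromosome 1 held 1925 wild-type and 3260 knockout peaks, chromosome 13 held 1751 and 2523, and chromosome 16 held 1071 and 1707. The ratio of knockout to wild-type peaks was 1.69, 1.44 and 1.59 in that order. The next autosome, just outside the choice, was chromosome 5 with a ratio of 1.24. Relative to the sequence between its first and last peak, chromosome 1 had 9.95 wild-type peaks per Mb, chromosome 13 had 14.98 and chromosome 16 had 11.3. These densities ranked 18, 11 and 16 of 19 autosomes from the highest, and the other autosomes ran from 8.65 to 25.6 peaks per Mb. In the knockout the same chromosomes had 16.9, 21.6 and 18.0 peaks per Mb, at ranks 12, 5 and 10, with the others between 8.72 and 25.2. The density of H2A.Z sites on the 3 chromosomes was thus within the range of the other autosomes in both libraries. Its rank was higher in the knockout list on each of them, which carries the choice of chromosomes by peak number and is a description.

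Many knockout peaks on these chromosomes had no wild-type counterpart. A peak was counted as having a partner when at least 1 bp overlapped a peak of the other list. On the 3 chromosomes 3375 of 7490 knockout peaks had no partner, or 45.1% (95% interval 43.9 to 46.2%), against a share of 28.1% over the whole knockout list. Chromosome 1 had 47.5%, chromosome 16 had 44.3% and chromosome 13 had 42.4%. Over the other autosomes pooled it was 24.4% (95% interval 24.0 to 24.9%), and the highest single value among them was 33.2% on chromosome 10. Because the rule chose chromosomes by peak number in this same contrast, these shares are given as a description. All intervals cover counting error over peaks only and treat neighbouring peaks as independent.

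Few wild-type peaks on the same chromosomes had no knockout counterpart. They were 495 of 4747, or 10.4% (95% interval 9.57 to 11.3%), against 18.3% over the whole wild-type list. Chromosome 1 had 7.84%, chromosome 16 had 8.68% and chromosome 13 had 14.3%, while the other autosomes pooled had 19.7%. The wild-type share did not set chromosome 13 apart, since chromosome 7 had 9.85%, the lowest of the other autosomes, and chromosome 13 ranked 14 of 19 from the highest. For each wild-type-only peak there were 6.82 knockout-only peaks on the 3 chromosomes and 1.30 on the others. Taken singly, chromosomes 1, 16 and 13 had 10.3, 8.14 and 4.26.

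**Figure D1:**
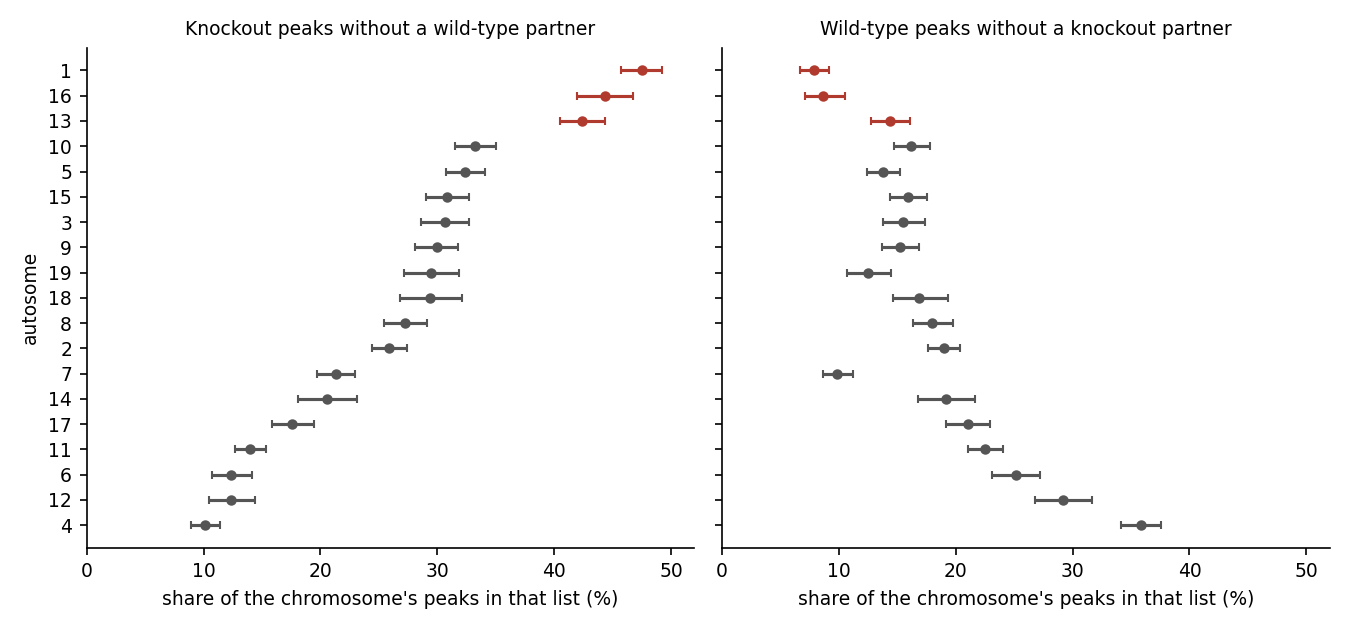
Share of peaks without a partner in the other list for each of the 19 autosomes, as a percentage of the chromosome's knockout peaks (left) or wild-type peaks (right), with exact 95% intervals. Chromosomes 1, 13 and 16 (red) have the highest knockout shares, between 42.4% and 47.5%, and wild-type shares between 7.84% and 14.3%, where other autosomes reach as low as 9.85%.

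The no-partner shares were also compared at equal peak width and site density. Chromosomes with more knockout than wild-type peaks must hold many knockout peaks without a partner, and matching does not alter that ratio, so the matched shares describe the choice of chromosomes and support nothing beyond it. Site density was counted as the number of wild-type peaks whose centres lay within 500 kb of a peak. It had a median of 21 around knockout peaks of the 3 chromosomes and 31 around those of the other autosomes. When the other autosomes were weighted to the members' own mix of knockout width and site density, 27.7% of their knockout peaks had no partner. The members exceeded this by 17.3 percentage points (95% interval 16.1 to 18.6). The densest class ran from 35 to 62 sites on the 3 chromosomes and to 108 on the others, so density was unequal within it. Wild-type peaks of the other autosomes, weighted to the members' wild-type width and density, lacked a partner in 21.9%, and the members lay 11.4 points under it, a difference of -11.4 (95% interval -12.4 to -10.4).

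Partner loss fell with peak width in both lists, and the gap between the chromosome sets was present in nearly every width class. The gap carries the chosen excess of knockout peaks, as the matched shares do, and is a description. Of the members' knockout peaks between 1000 and 1200 bp, 81.6% had no wild-type partner, compared with 60.6% on the other autosomes. Between 1500 and 2000 bp the shares were 53.1% and 26.5%, and between 2000 and 3000 bp they were 19.9% and 7.09%. Even knockout peaks of 3000 bp or more lacked a wild-type partner in 6.46% of cases (58 of 898 peaks; 95% interval 4.94 to 8.27%) on the 3 chromosomes and in 2.32% on the others. In the wild-type list the order was the opposite. Wild-type peaks narrower than 1000 bp had no knockout partner in 37.5% on the 3 chromosomes and 59.9% elsewhere, and those between 1500 and 2000 bp in 2.73% and 9.40%. Wild-type peaks of 3000 bp or more were the exception, since 3 of 270 had no partner on the 3 chromosomes (1.11%) and 13 of 2612 elsewhere, and the intervals overlapped.

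**Figure D2:**
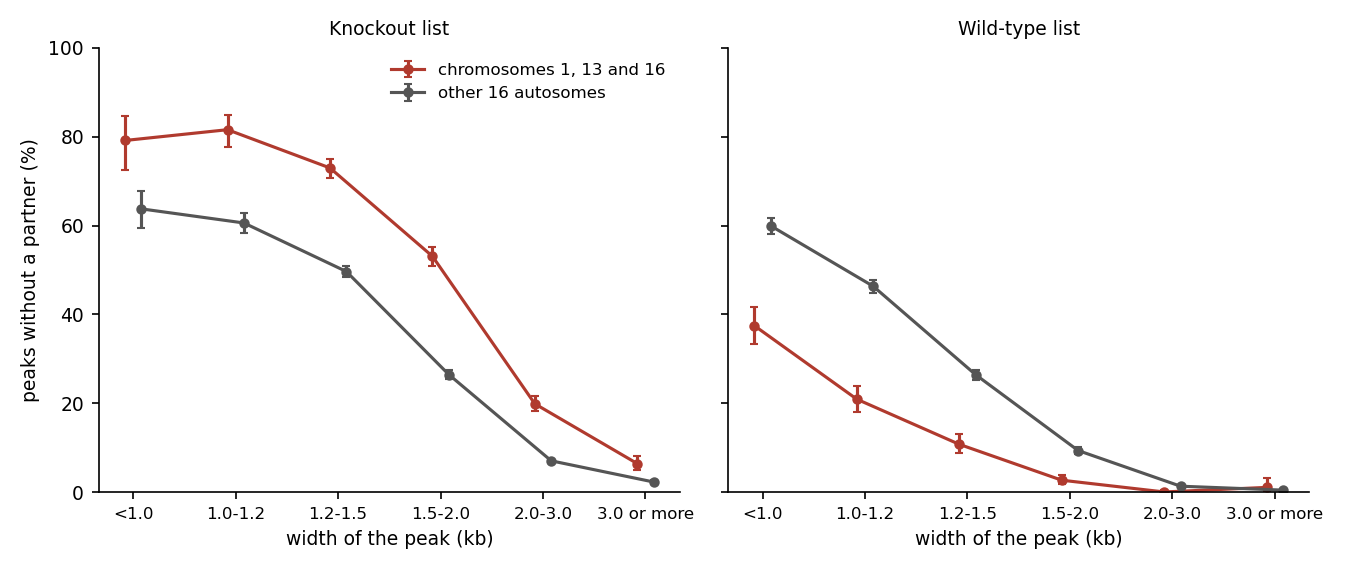
Percentage of peaks without a partner by width of the peak in kb, for the knockout list (left) and the wild-type list (right), with exact 95% intervals. The 3 chromosomes (red) lie above the other 16 autosomes (grey) in all 6 knockout width classes, from 81.6% against 60.6% at 1.0 to 1.2 kb down to 6.46% against 2.32% at 3 kb or more, and below them in the wild-type classes up to 3 kb. The chromosomes were chosen for their excess of knockout peaks, so this gap is a description.

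The no-partner share was higher in site-poor than in site-dense sequence on both sets of chromosomes. In the quintile (20%) of the members' knockout peaks with fewest wild-type sites nearby, 0 to 11 within 500 kb, 52.8% had no partner, and 33.3% of other autosomes' peaks at that density had none. In the densest quintile, with 35 or more sites, the shares were 38.6% and 18.6%. These shares, like the matched ones, carry the chosen excess of knockout peaks and are a description.

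Knockout-only peaks were slightly wider on chromosomes 1, 13 and 16 than elsewhere, and the excess lay in the upper part of the distribution. Their median width was 1469 bp (95% interval 1452 to 1487 bp, 3375 peaks), against 1413 bp (1406 to 1422 bp, 8217 peaks) on the other autosomes and 1395 bp when these were weighted to the members' site density. The difference from the weighted value was 74 bp (95% interval 55.2 to 92.7 bp). At the 10th percentile the members had 1116 bp and the weighted others 1089 bp, whereas at the 90th the values were 2151 and 1985 bp. The distribution therefore differed by 27 bp at its narrow end and 166 bp at its wide end. Medians on the single chromosomes were close together, at 1464 bp (chromosome 1), 1459 bp (chromosome 13) and 1484 bp (chromosome 16). They ranked 3, 4 and 2 of 19 autosomes, and chromosome 15, the highest, had 1555 bp.

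These knockout-only peaks remained narrow by the standard of shared peaks. On the 3 chromosomes shared knockout peaks had a median width of 2245 bp, and 284 knockout-only peaks (8.41%) were wider than that. On the other autosomes 7.61% of knockout-only peaks were wider than the shared median there, 2125 bp. Knockout-only peaks were also wider where sites were dense. Their medians rose from 1364 bp in the quintile with 0 to 10 wild-type sites within 500 kb to 1552 bp in the quintile with 34 or more, and from 1330 to 1466 bp on the other autosomes.

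Wild-type-only peaks of the 3 chromosomes were narrower than those elsewhere. The median was 1040 bp (95% interval 1015 to 1080 bp, 495 peaks), and the other autosomes had 1137 bp, or 1116 bp at matched density. The difference at matched density was -76 bp (95% interval -103 to -35.4 bp). The 3 chromosomes had nearly equal medians of 1039, 1040 and 1042 bp, and these were the lowest of the 19 autosomes. The next lowest was chromosome 3 with 1062 bp, and the highest was chromosome 4 with 1193 bp. This result depended on the pairing rule. When partners needed centres within 250 bp, the wild-type-only peaks of the members were the wider ones by 43.5 bp. That rule counts peaks that overlap off centre as having no partner.

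Knockout-only peaks lay farther from wild-type peaks on the 3 chromosomes, with a median edge-to-edge distance of 12982 bp (95% interval 12267 to 14066 bp) against 9139 bp (8781 to 9579 bp) on the other autosomes. For chromosomes 1, 13 and 16 taken singly the medians were 14142.5, 12027 and 12499 bp, which ranked 2, 6 and 5 of 19. Within 1 kb of a wild-type peak lay 6.16% of the members' knockout-only peaks and 9.31% of the others, and within 10 kb lay 42.7% and 52.4%. Within 100 kb lay 91.6% and 94.4%, and beyond it lay 285 of the members' 3375 peaks and 464 of the others' 8217.

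Matching on wild-type site density removed most of this difference. The other autosomes, weighted to the members' number of wild-type peaks within 500 kb, had a median of 12328 bp. The members exceeded it by 654 bp, with an interval from -211 to 1822 bp that includes 0. With 5 density strata in place of 10 it was 987 bp (137 to 2158 bp), and with partners defined by centres within 250 bp it was 2532 bp (1851 to 3200 bp), so whether the interval includes 0 depends on these settings. With 0 to 10 wild-type sites nearby the medians were 50960.5 bp on the 3 chromosomes and 45435.5 bp on the others. With 24 to 33 sites they were 8165.5 and 8292 bp. The sites counted for this match are also the targets of the distance. When density was counted instead over joined regions, which merge overlapping peaks of both lists into single sites, the weighted others had 9297 bp and the difference was 3685 bp (95% interval 2870 to 4835 bp). Counted over knockout peaks the difference was 4379 bp. With more knockout than wild-type peaks, equal joined or knockout density implies fewer wild-type peaks nearby, so these larger distances carry the choice of chromosomes and are a description.

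**Figure D3:**
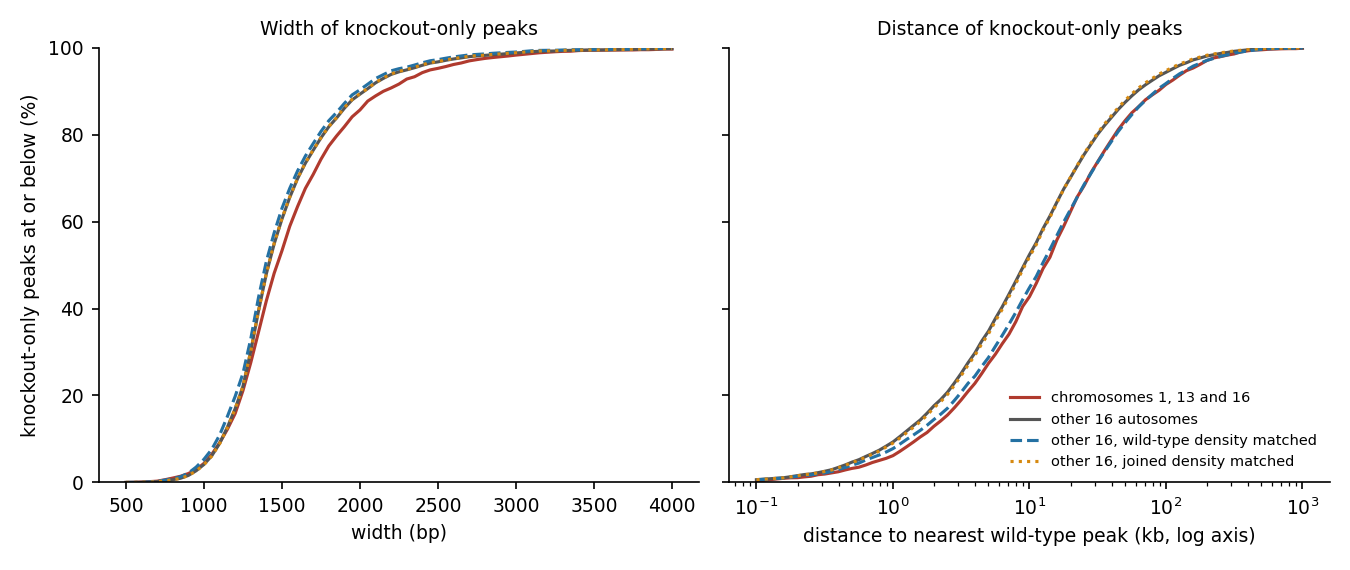
Cumulative percentage of knockout-only peaks by width in bp (left) and by distance to the nearest wild-type peak in kb on a log axis (right). Chromosomes 1, 13 and 16 (red) are shifted to larger widths. In distance they lie close to the other 16 autosomes weighted by wild-type density (blue, dashed; medians 12982 and 12328 bp) and to the right of the unweighted others (grey; 9139 bp) and those weighted by joined density (orange, dotted; 9297 bp).

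For wild-type-only peaks the median distance to the nearest knockout peak was 7686 bp (95% interval 6633 to 8859 bp) on the 3 chromosomes and 8325 bp (7956 to 8617 bp) on the others. The difference was -639 bp, with an interval from -1732 to 591 bp that includes 0. Weighted by wild-type density the other autosomes had 12606 bp, a difference of -4920 bp (95% interval -6205 to -3590 bp). That weighting leaves the number of knockout peaks unequal. When the density of knockout peaks was matched instead, the difference was 437 bp in the other direction. Its interval, from -674 to 1655 bp, includes 0. With density over joined regions it was -807 bp, with an interval from -1943 to 402 bp that also includes 0. Whether a difference is seen therefore rests on which list defines site density.

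Where a site was called once in each library, the knockout call was the wider of the pair in almost all cases on these chromosomes. One-to-one pairs, in which each peak overlapped exactly 1 peak of the other list, numbered 3963 on the 3 chromosomes. The knockout peak was wider in 3710 of them, or 93.6% (95% interval 92.8 to 94.4%), against 79.7% of pairs in the whole lists. Chromosome 1 had 94.9%, chromosome 13 had 91.2% and chromosome 16 had 95.01%. The other autosomes pooled had 77.3%, and the highest among them was chromosome 5 with 89.5%. The knockout peak was at least 1.5 times as wide in 907 pairs of the members, or 22.9%, compared with 11.7% of all pairs and 9.97% on the other autosomes. The wild-type peak was at least 1.5 times as wide in 9 pairs, or 0.227%, compared with 0.918% of all pairs and 1.05% on the other autosomes.

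The extension, which is the knockout width minus the wild-type width of a pair, had a median of 392 bp (95% interval 380 to 406 bp, quartiles 203 and 695 bp). It was 188 bp (95% interval 184 to 192 bp) on the other autosomes pooled. Chromosomes 1, 13 and 16 had 409, 354.5 and 410.5 bp, at ranks 2, 4 and 1 of 19. Chromosome 15, the highest of the others, had 363.5 bp and lay above chromosome 13. On the 3 chromosomes paired peaks had a median width of 1679 bp in the wild type, and of 2211 bp in the knockout. They were 1877 and 2112 bp on the others, so that the members' pairs were narrower in the wild type and wider in the knockout. This order was not seen over all peaks, paired or not. There the members had the lower median in both lists. Wild-type medians were 1568 bp on the 3 chromosomes and 1649 bp on the others, and knockout medians were 1791 and 1899 bp. Weighted to the members' wild-type width and site density, the other autosomes had an extension of 203 bp (95% interval 198 to 208 bp). The members exceeded it by 189 bp (95% interval 176 to 204 bp). Taken singly, chromosome 1 exceeded its own weighted comparison by 208 bp, chromosome 13 by 147.5 bp and chromosome 16 by 207.5 bp. Chromosomes 4, 6, 11 and 12 are 4 of the 5 autosomes with fewer knockout than wild-type peaks, the other being chromosome 17 (ratio 0.946). Without those 4 the weighted others had 240 bp and the difference was 152 bp.

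The difference in extension was present at every wild-type width. In the narrowest quintile, with wild-type widths of 568 to 1176 bp on the 3 chromosomes, the medians were 466 bp on them and 362 bp on the others. In the middle quintile they were 365 and 165 bp, and in the widest quintile, from 2349 bp, they were 337 and 116 bp. The excess was therefore smallest for narrow wild-type peaks. As a ratio of widths the members had medians of 1.48 in the narrowest and 1.12 in the widest quintile, and the others had 1.35 and 1.04. Quintiles cut by the mean width of the pair gave the members medians from 300 bp in the narrowest to 466 bp in the widest, so the slope with width turned with the width used for sorting. The difference between the chromosome sets did not turn in any quintile of either sorting.

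Extension on the 3 chromosomes was smaller in site-poor sequence. It was 332 bp (95% interval 314 to 358 bp) with 0 to 11 wild-type sites within 500 kb and 426 bp (399 to 464 bp) with 35 or more. The other autosomes had 163 and 185 bp in the same quintiles. On chromosome 1 the medians were 331 and 486 bp, with separate intervals. They were 345 and 497 bp on chromosome 16 and 300 and 365 bp on chromosome 13, where the intervals overlapped.

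**Figure D4:**
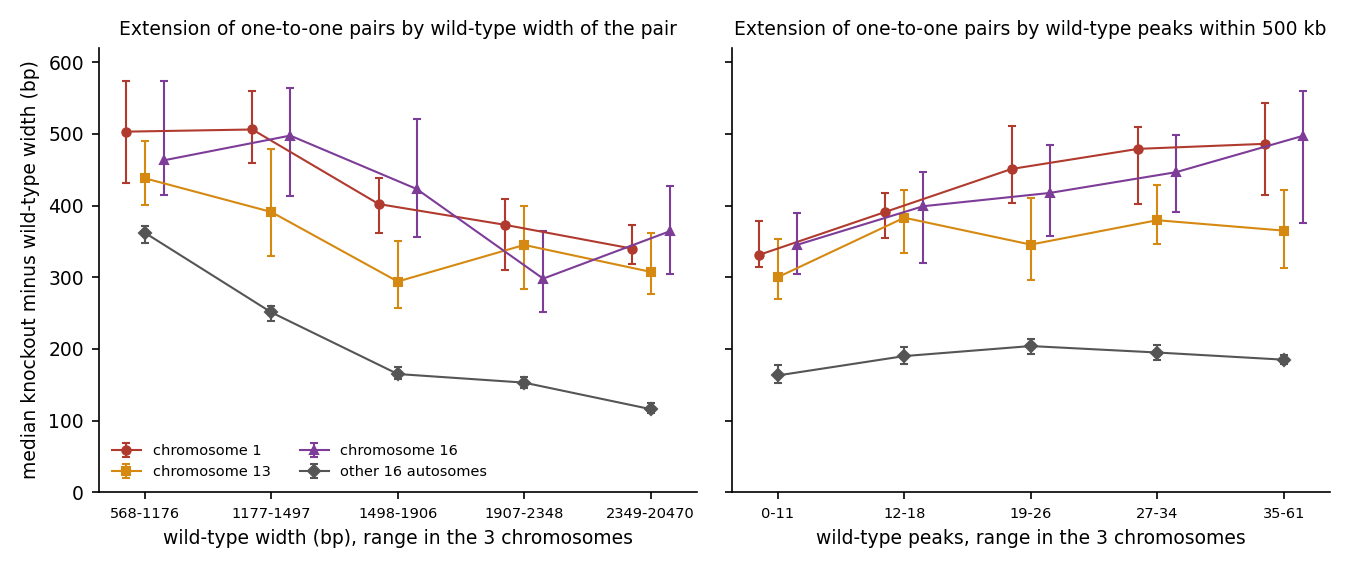
Median knockout minus wild-type width of one-to-one pairs in bp, in quintiles of wild-type width (left) and of the number of wild-type peaks within 500 kb (right), with exact 95% intervals from order statistics. Each of chromosomes 1, 13 and 16 lies above the pooled value of the other 16 autosomes (grey) in every quintile. The others fall from 362 to 116 bp from the narrowest to the widest wild-type peaks.

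Over all pairs, the lower and higher edges moved outward by similar medians. These medians do not show how the growth of a single peak was divided between its sides. On the side of lower coordinates the knockout edge lay a median of 173 bp beyond the wild-type edge, and 179 bp on the other side. The other autosomes had 82 and 83 bp. Both edges were moved outward in 3094 pairs of the 3 chromosomes (78.1%), 1 edge in 793 (20.01%) and neither in 76 (1.92%). On the other autosomes these shares were 56.3, 34.4 and 9.24%. Chromosome 13 had both edges outward in 71.8%, chromosome 16 in 79.6% and chromosome 1 in 82.5%, and the highest of the other autosomes, chromosome 5, had 70.2%. At 1000 bp on the side of lower coordinates from the centre of the wild-type peak, 34.5% of the members' pairs were covered by the wild-type peak and 58.2% by the knockout peak. In the weighted others the values were 35.8 and 47.5%.

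**Figure D5:**
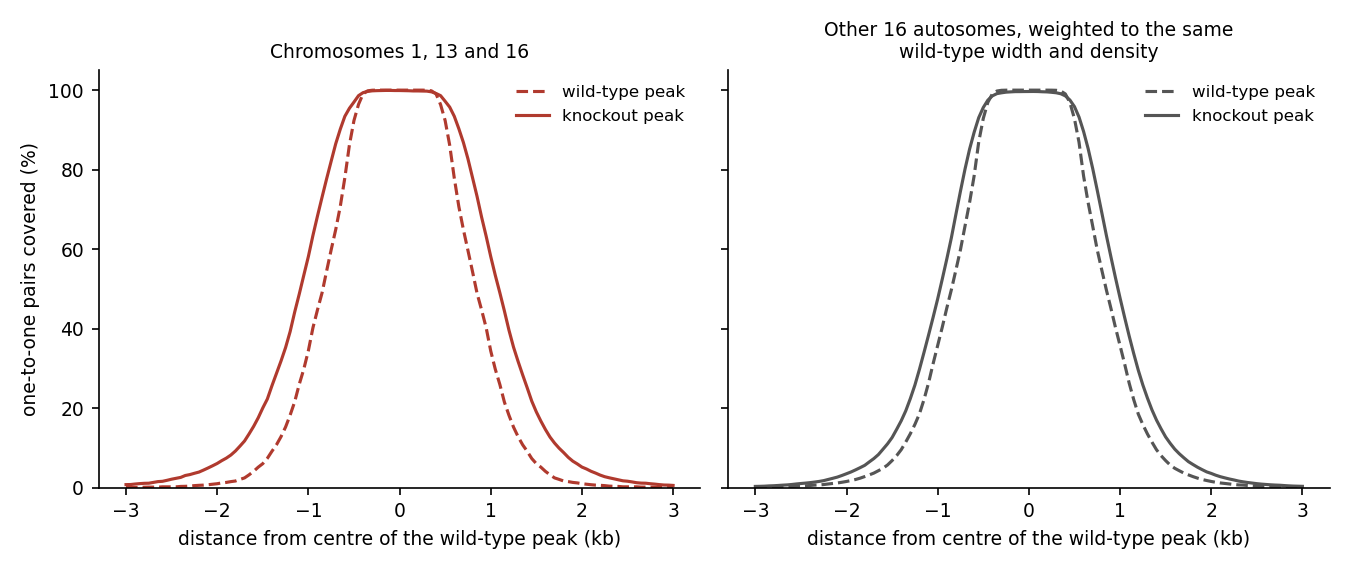
Percentage of one-to-one pairs whose wild-type peak (dashed) or knockout peak (solid) covers a position, by distance in kb from the centre of the wild-type peak. The wild-type curves of the 3 chromosomes (left) and of the weighted other autosomes (right) are close, 34.5% and 35.8% at -1 kb, and the knockout curve is the broader one by more on the 3 chromosomes, 58.2% against 47.5%.

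Fusion of neighbouring wild-type sites into a single knockout peak depended on what it was counted over. Of the members' knockout peaks, 136 overlapped 2 or more wild-type peaks, or 1.82% (95% interval 1.53 to 2.14%), against 1.92% of the whole list and 1.95% on the other autosomes. That denominator includes knockout-only peaks, which cannot fuse wild-type sites. Over knockout peaks with a partner the share was 3.30% of 4115 (95% interval 2.78 to 3.90%) on the 3 chromosomes and 2.59% of 25445 (2.39 to 2.79%) on the others. Taken singly, chromosomes 1, 13 and 16 had 3.50, 3.30 and 2.95%. Chromosome 15 had 5.55% and chromosome 5 had 3.44%, so a share of this size was not particular to the 3 chromosomes. Of the members' 246 pairs of adjacent wild-type peaks within 1 kb of each other, 123 were joined by a knockout peak, or 50.0% (95% interval 43.6 to 56.4%). On the other autosomes 650 of 2276 were joined, or 28.6% (95% interval 26.7 to 30.5%). Chromosomes 1, 13 and 16 taken singly had 53.0, 47.5 and 48.9%. The other autosomes were not taken singly for this share, and gap width was not matched. It therefore cannot be called particular to the 3 chromosomes. The gaps bridged had a median of 274 bp on the 3 chromosomes and 157 bp elsewhere. The reverse event, a wild-type peak over 2 or more knockout peaks, occurred 9 times (0.190%), against 0.581% of the whole list and 0.651% on the other autosomes. None of the 9 was on chromosome 16, where a count of 0 of 1071 wild-type peaks, at a limit of 3 counts, allows a share of up to 0.280%.

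In bases, H2A.Z peaks covered 15.2 Mb (knockout) and 8.23 Mb (wild type) of the 3 chromosomes, a ratio of 1.85. The ratio was 1.19 on the other autosomes. Peak numbers alone gave knockout to wild-type ratios of 1.58 and 1.04. The cover ratios, and the shares of added bases in knockout-only peaks below, thus carry the chosen excess and are a description. Knockout peaks covered 7.66 Mb outside any wild-type peak there, of which 5.31 Mb lay in knockout-only peaks (69.3%) and 2.35 Mb within shared peaks. On the other autosomes 59.3% of the added 21.01 Mb lay in knockout-only peaks. Wild-type peaks covered 0.66 Mb of the 3 chromosomes outside any knockout peak. On the 3 chromosomes 74 of 7490 knockout peaks and 12 of 4747 wild-type peaks were over 5 kb. The other autosomes had 391 of 33662 and 195 of 32262, and the whole lists 472 of 41912 and 211 of 37667. Over all peaks of either list, such peaks thus made up no larger a share on the 3 chromosomes than elsewhere. The knockout totals include knockout-only peaks, the widest being 4980 bp on the 3 chromosomes and 5038 bp on the others. All 74 wide knockout peaks of the 3 chromosomes therefore had a partner. Over knockout peaks with a partner, 4115 and 25445 in number, the order of the knockout shares turns.

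The lack of wild-type partners and the extension ran along most of each chromosome. In the 10 bins of 20 Mb on chromosome 1, the share of knockout peaks without a partner lay between 35.7 and 58.8%, and the median extension between 207 and 464 bp. In the 6 bins of chromosome 13 with at least 50 peaks, the shares lay between 37.0 and 50.5% and the extension between 324 and 423 bp. In the 5 bins of chromosome 16 they lay between 36.7 and 52.04% and between 309 and 498 bp. Extension was smallest in the bin of chromosome 1 from 100000001 to 120000000, where only 21 pairs were found. All 21 of these bins lay above the pooled other autosomes in the knockout no-partner share (24.4%) and the extension (188 bp). Width and distance of knockout-only peaks varied more along the chromosomes, with 6 of the 21 bins under the others' median width of 1413 bp and 2 under their median distance of 9139 bp. The last bin of chromosome 13 held only 6 wild-type and 5 knockout peaks and was left out of these counts, at a ratio of 0.833. The ratio of peak numbers on chromosome 13 ran from 1.35 to 1.61 along the same bins.

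Single regions are given on mm9, counted from 1, and were picked by width, extension or count. Gene names and sequences at these regions are not given, as no annotation on this build was used here. The widest knockout-only peak of chromosome 1 spanned 36689959 to 36694364 (4406 bp), with a wild-type peak 3.92 kb away. It lay in the 100 kb window of that chromosome with most knockout-only peaks, from 36600001, which held 9 of them among 17 knockout and 9 wild-type peaks and shared this count with 1 other window. The next on chromosome 1 were 4396 bp from 194609901 and 4152 bp from 138547613. On chromosome 13 the widest was 4304 bp, 40744260 to 40748563, in sequence with 15 wild-type peaks within 500 kb and 50.6 kb from the nearest one. It was followed by 4194 bp from 98445473 and 3873 bp from 48762959, which lay 1.91 and 0.608 kb from a wild-type peak. On chromosome 16 the third widest, 4058 bp from 92823138, lay 0.571 kb from a wild-type peak, whereas the wider ones from 44493234 and 97935713 lay 40.7 and 44.1 kb away. Wide knockout-only peaks thus occurred both beside wild-type sites and far from them.

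The largest extension of a pair was at chromosome 1, 156895857 to 156903798, where a wild-type peak of 2988 bp matched a knockout peak of 7942 bp. It grew by 2262 bp on one side and 2692 bp on the other. The next on that chromosome was from 64269313, with 1804 bp in the wild type and 5927 bp in the knockout. On chromosome 13 a peak of 1407 bp matched 4886 bp from 51426266 with 1874 and 1605 bp added on the sides. Another, of 1105 bp, matched 4569 bp from 74021404 with 3146 bp of the growth on the side of lower coordinates. On chromosome 16 a peak of 2205 bp matched 5595 bp from 30598812 with 3339 of the 3390 added bp on the side of higher coordinates, and one of 2245 bp matched 5467 bp from 94083104. Extreme extensions were therefore of both kinds, to both sides and to a single side.

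A minority of sites went against the trend. The largest loss of width was at the distal end of chromosome 13, where a wild-type peak of 7383 bp, 120275867 to 120283249, matched a knockout peak of 4465 bp. This was also the widest wild-type peak of that chromosome with a partner. The largest losses on the other chromosomes gave width differences of -830 bp from 138358809 on chromosome 1 and -1235 bp from 18585949 on chromosome 16. The widest wild-type-only peak of chromosome 1 (9186 bp, from 90193870) lay close to the widest shared peak of that chromosome, which ended at 90189538 in the wild type. Its next was 2228 bp from 85242835, 302 kb from any knockout peak. Chromosome 13 had 3013 bp from 52173843 and 1969 bp from 108027944. The first lay in the 100 kb window with most knockout-only peaks of that chromosome, from 52100001, which held 9 of them among 11 knockout and 4 wild-type peaks. Chromosome 16 had 3073 bp from 3231385, near its proximal end and 398 kb from any knockout peak, and 1787 bp from 44675768.

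Some knockout peaks ran across several wild-type sites. On chromosome 1 a knockout peak of 10989 bp, 135987917 to 135998905, covered 4 wild-type peaks of 1221 to 1968 bp. On chromosome 13 a peak of 8078 bp, 21258519 to 21266596, overlapped 4 wild-type peaks of 1217 to 2519 bp and was the widest shared knockout peak there. On chromosome 16 no knockout peak overlapped more than 2 wild-type peaks, and the widest of these was 6874 bp from 30062513, over peaks of 2229 and 2649 bp. The widest wild-type peak of chromosome 16 with a partner, 5293 bp from 52449697, matched 5639 bp in the knockout. The window of chromosome 16 with most knockout-only peaks, from 30700001, held 7 of them and was the first of 5 windows with that count.

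Remote knockout-only peaks were rare on the 3 chromosomes. Those more than 1 Mb from any wild-type peak numbered 4 of 3375, all on chromosome 1. The other 16 autosomes together had 4 of 8217, and the whole list had 8 of 11759. The 4 on chromosome 1 were chosen for naming after their values were seen. They started at 29216630, 111878582, 147191876 and 148344256, were 1077, 1766, 1517 and 1709 bp wide, and lay 1.71, 1.88, 1.00 and 2.15 Mb from a wild-type peak. All had widths within the range of ordinary knockout-only peaks, whose 5th and 95th percentiles on the 3 chromosomes were 1015 and 2462 bp.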

How the data were processed

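Chromatin was immunoprecipitated with an H2A.Z antibody and sequenced with single-end 50-base reads, per the labels' protocols. The authors deposited 1 list of peak positions (chromosome, start and end) for each of the 2 H2A.Z libraries, saved from Galaxy per the file headers. Per the submitters' processing notes coordinates are on mm9, and MACS 1.4.2, HOMER, Bowtie 0.12.8 and CASAVA 1.8.2 are named. What each did, with which settings, peak threshold and input, is not given in the sources used here. The lists hold no score or count, so depth is unknown. Groups came from the sample titles.

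Partners needed 1 bp of overlap. Comparisons weighted the other 16 autosomes to the members' strata: 10 of site density for peaks without a partner, and 5 of width by 5 of density for shares and pairs. Intervals are exact (Clopper-Pearson, order statistics), stratified for weighted shares, Woodruff for weighted medians, and combined by MOVER, which joins the separate intervals, for differences. All are at 95%. Python 3.11.15, numpy 2.4.6, pandas 2.3.3, scipy 1.17.1 and matplotlib 3.10.9 were used, and the code was tested on simulated data. The chromosomes, comparisons and naming rules were chosen with earlier results of these data known. Named regions are, per chromosome, the 3 widest knockout-only and 2 widest wild-type-only peaks, the 2 largest and 1 smallest extensions, the knockout peak over most wild-type peaks, the 100 kb window richest in knockout-only peaks and the widest shared peak of each list.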

Additional observations from a re-analysis of the deposited data

How the results depend on the processing

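Of 122 alternative values of the difference between the 3 chromosomes and the weighted other autosomes, 120 kept its sign, 82 stayed within its interval, 38 moved outside it and 2 turned. Shares are in percentage points and widths and distances in bp. Unless stated, the cause was not tested. With centres within 250 bp, the differences were 43.5 (turned) for wild-type-only width, 53 for knockout-only width, 151 for extension, -3.39 for the wild-type no-partner share, and 2532 (knockout-only) and -2197 (wild-type-only) for distance. With 50% of both peaks overlapping, they were 19.6 and -4.92 for the knockout and wild-type no-partner shares, 93 and -14.5 for the widths of knockout-only and wild-type-only peaks, -7066 for wild-type-only distance and 173 for extension. Under both rules peaks without a partner can overlap one another, and the median wild-type-only distance of the members was 0. Without chromosomes 4, 6, 11 and 12 they were 14.03 and -7.82 for the no-partner shares, -2699 for wild-type-only distance, 152 for extension and 9.32 for the share of pairs wider. Without chromosome 1 they were 15.7 for the knockout no-partner share and 12.9 for pairs wider. Without chromosome 13 they were 18.7, -13.2, 208, 15.3 and -7492 for the no-partner shares, extension, pairs wider and wild-type-only distance. Among peaks of at least 1500 bp they were -6.45 for the wild-type no-partner share, 16.1 for pairs wider and -1416 for wild-type-only distance. Density over joined regions gave 3685 and -807 for the knockout-only and wild-type-only distances. The remaining settings were chosen after seeing the data. Density over knockout peaks gave 4379 and 437 (turned) for these distances and 48 for knockout-only width. With no weighting the values were 20.6 and -9.24 for the no-partner shares, 3843 and -639 for the distances, 204 for extension and 16.4 for pairs wider. Matching pairs on mean width gave 204 and 15.8. No paired analysis was possible because there is only 1 library of each genotype.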
